A study of Mus musculus with 8 samples.

Results

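The genes described here belong to the complement, coagulation and serpin systems, and were taken by gene symbol from a comparison of primary astrocyte cultures of Spp1 knockout and wild-type mice. The symbol rule covers complement components, receptors and regulators, a set of coagulation and plasminogen genes, and every gene whose symbol begins with Serpin. It found 34 members among the 3624 genes of the authors' deposited table, 11 of them serpins. The cultures came from retinas and optic nerves of mice at postnatal day 1 to 3 and were grown in medium with fetal bovine serum. The 4 control samples were C57BL/6 with the genotype wild type, and the 4 knockout samples were of the strain B6.129S6(Cg)-Spp1tm1Blh/J with the genotype Spp1-/-, which lacks Spp1 in every cell of the animal. Spp1 encodes osteopontin, a secreted matrix phosphoprotein. The labels give no litter, sex, pooling or day of culture, and do not say whether samples of a genotype were separate cultures, so the authors' p-values cover the spread among these samples alone, and that spread may be technical.

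Complement is a cascade of secreted proteins in which C1q, lectins or spontaneous turnover lead to cleavage of C3, with membrane attack at its end and inhibitors at each step. In the retina and brain, microglia are the main source of C1q and carry complement receptors, while C3 and C4 can also come from astrocytes. Coagulation is a protease cascade that ends in thrombin, and the plasminogen system digests fibrin and matrix. Serpins are a family in which most members trap serine or cysteine proteases by a single conformational change, and a few have other roles, such as chaperoning collagen.

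The table holds 1 comparison, filtered by the authors, and no value per sample. The authors' deposited table goes up to an adjusted p of 0.0499 and down to an absolute log2 fold change of 0.58, a 1.50-fold difference. About 16600 genes were estimated as tested, so 21.8% of tested genes were listed. Being listed is part of the rule, so nothing is read from that share for the members. Of 104 protein-coding symbols that fit the rule in the GENCODE M21 annotation, 70 were not listed. Such genes may have been untested or short of a limit, and none of them is read as unchanged. Spp1 itself was at 1.68% of its wild-type level in the authors' deposited table, and its negative value was used to read fold changes as knockout over wild type. Where a group mean is given below it is implied, worked out from the deposited mean over all samples and the fold change with groups of equal size, in normalized counts. Intervals at 95% come from the deposited standard error, and values after a plus-minus sign are that standard error on the log2 scale.

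Of the 34 members, 26 were higher and 8 lower in the knockout, against 54.9% higher and 45.1% lower over all listed genes. The median log2 fold change of the members was 1.75, beside 0.66 over the listed genes with a unique name. Over the 26 members left without C1qa, C1qb, C1qc, C3ar1, C5ar1, C5ar2, Cfp and Plaur, the median was 0.86, with 19 higher and 7 lower. Those genes were named as expressed by macrophages, and the members kept may include others that macrophages express. The complement members lay almost wholly on the higher side (16 of 17), the coagulation and plasminogen members were evenly divided (5 higher and 5 lower), and the serpins gave 7 higher and 4 lower. Serping1 counts as a complement regulator and a serpin, and 3 other serpins, Serpina10 and Serpini1 among them, count also under coagulation or plasminogen. The 95% interval lay wholly beyond the fold limit of the table for 23 members (67.6%), 18 higher and 5 lower, against 53.2% of all listed genes, 32.7% higher and 20.5% lower. The log2 fold change was 1 or more in size for 64.7% of the members and 58.0% of all listed genes.

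**Figure D1:**
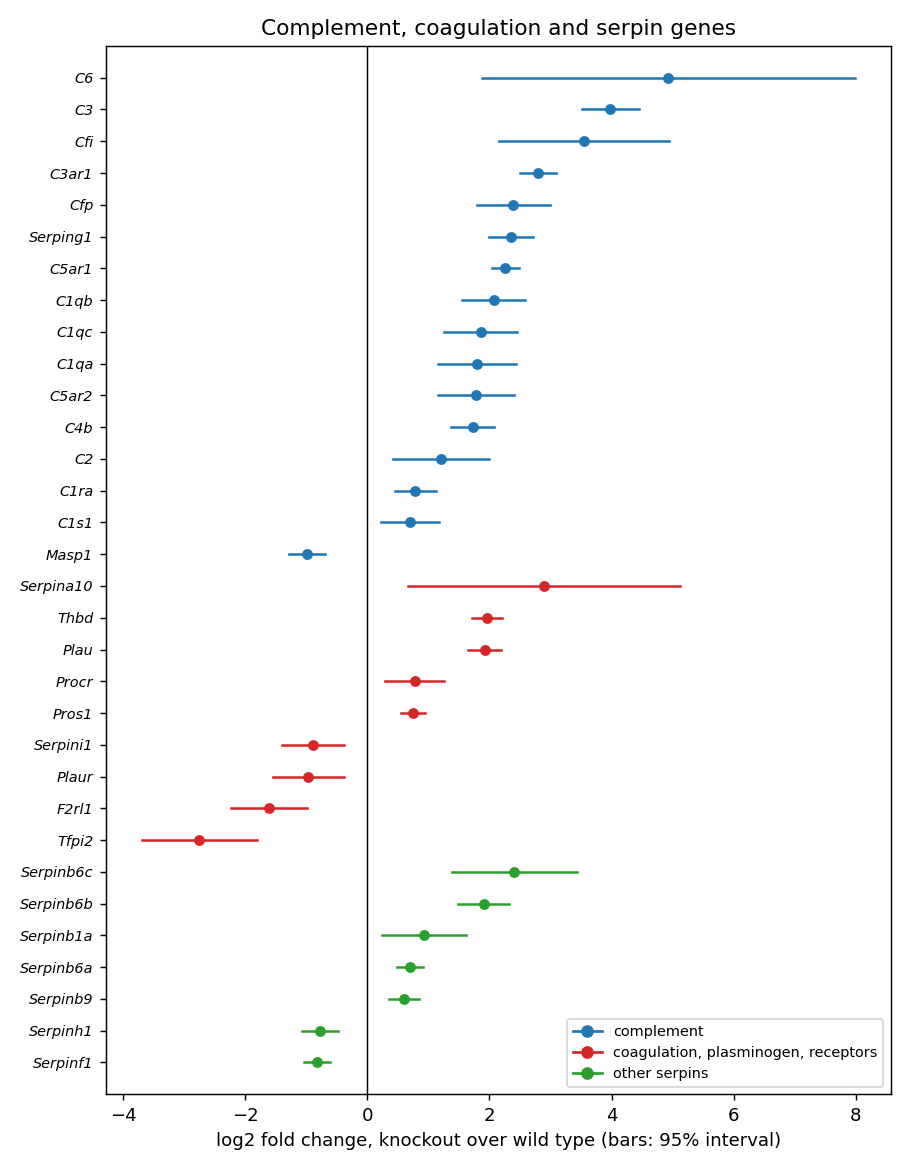
Log2 fold change of knockout over wild type (x axis) for 32 of the 34 genes (y axis), with points at the deposited value and bars for the 95% interval, coloured by complement, coagulation and plasminogen genes, and other serpins. All complement genes except Masp1 lie right of 0, the coagulation and plasminogen genes lie on both sides, and C6 and Serpina10 have the widest bars.

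Markers of cells other than astrocytes were listed, and many moved with the genotype. The authors' deposited table listed 22 of 24 microglia and macrophage markers and all 22 were higher, with log2 fold changes from 0.91 to 4.36 and a median of 2.30. Their summed implied mean went from 36045 normalized counts in wild type to 175408 in the knockout, a ratio of 4.87, and Lyz2, a lysozyme of myeloid cells, stood at 14666 and 79440. Tmem119 and Cd163 were the markers of that list that were not listed. Meningeal fibroblast markers gave 13 higher and 2 lower of 22, with a median of 1.06 and a summed ratio of 2.20. Oligodendrocyte lineage markers gave 1 higher and 11 lower of 14, Schwann cell markers 0 and 9 of 12, neuron markers 0 and 9 of 13, pericyte and smooth muscle markers 0 and 5 of 11, and endothelial markers 2 and 3 of 14. Of 18 astrocyte markers 4 were higher and 3 lower, so the listed ones had no common direction. The higher ones on the log2 scale were Gjb6 (4.28 ± 0.37), Aqp4 (1.15 ± 0.16), Ndrg2 (0.91 ± 0.17) and Gfap (0.66 ± 0.16). Implied means of Gfap, a filament gene of astrocytes, were 58315 in wild type and 91923 in the knockout. The lower ones were S100b (-1.82 ± 0.15), Fabp7 (-1.23 ± 0.10) and Pax2 (-0.98 ± 0.26) in the authors' deposited table. All 4 listed Y-linked genes were higher by 5.91 or more on the log2 scale, so sex and genotype cannot be told apart for any gene here. The groups also carry different strain labels, so strain and genotype cannot be told apart either. In bulk RNA, more cells of a type and more RNA per cell cannot be told apart, and the part of these cell types in the results below was not tested.

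**Figure D2:**
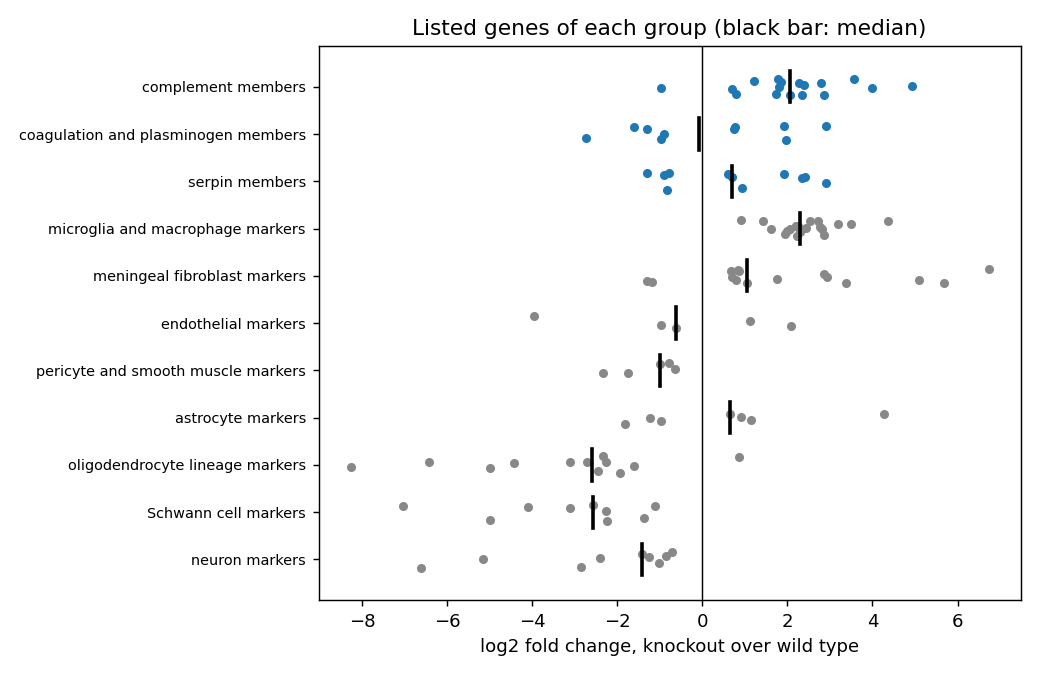
Log2 fold change of knockout over wild type (x axis) of every listed gene in the complement, coagulation and plasminogen, and serpin members (blue) and in 8 marker lists of cell types (grey), with the median of each as a black bar. The complement members (median 2.07) and the microglia and macrophage markers (median 2.30) overlap on the higher side, with Masp1 apart below 0, while oligodendrocyte, Schwann cell and neuron markers lie mostly below 0.

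Promoter sequence is shown for a few members whose behaviour the results turn on. Shown are C1qb and C1qc, neighbours that rose together, C3, the largest rise among genes of high count, Serpinb9, and Plaur, a receptor gene that fell. Serpinb9 lies in a stretch of chromosome 13 that holds 15 protein-coding serpins, of which 5 were listed, all higher. The bases are from RefSeq on GRCm38.p6, 5′ to 3′ on the gene's strand, within the 250 bases before an annotated start and outside exons of GENCODE M21. Capitals mark matches, on either strand, to 6 motifs: GAAANNGAA (interferon-regulatory factor), TTCNNNGAA (STAT), GAGGAAGT (PU.1), TGANTCA (AP-1), TTGCNNAA (C/EBP) and TATAAA (the TATA box).
C1qb, chr4:136886201-136886450, minus strand: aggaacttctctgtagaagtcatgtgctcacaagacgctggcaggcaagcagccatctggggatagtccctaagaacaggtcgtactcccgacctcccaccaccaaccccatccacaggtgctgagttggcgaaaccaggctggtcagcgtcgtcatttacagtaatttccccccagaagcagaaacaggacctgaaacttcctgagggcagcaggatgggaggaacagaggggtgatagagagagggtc
C1qc, chr4:136893066-136893164, minus strand: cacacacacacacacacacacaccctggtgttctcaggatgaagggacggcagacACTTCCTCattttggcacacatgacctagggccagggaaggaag
C3, chr17:57228137-57228386, minus strand: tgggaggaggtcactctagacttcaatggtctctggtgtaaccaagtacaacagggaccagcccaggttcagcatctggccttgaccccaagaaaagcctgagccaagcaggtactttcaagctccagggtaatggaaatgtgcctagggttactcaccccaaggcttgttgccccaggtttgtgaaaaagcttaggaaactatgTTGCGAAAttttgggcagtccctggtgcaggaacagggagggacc
Serpinb9, chr13:33004291-33004540, plus strand: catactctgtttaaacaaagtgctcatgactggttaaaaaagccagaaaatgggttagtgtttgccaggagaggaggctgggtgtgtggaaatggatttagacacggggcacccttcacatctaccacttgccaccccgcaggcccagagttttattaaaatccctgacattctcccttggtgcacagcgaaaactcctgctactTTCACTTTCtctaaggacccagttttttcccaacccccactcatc
Plaur, chr7:24462233-24462482, plus strand: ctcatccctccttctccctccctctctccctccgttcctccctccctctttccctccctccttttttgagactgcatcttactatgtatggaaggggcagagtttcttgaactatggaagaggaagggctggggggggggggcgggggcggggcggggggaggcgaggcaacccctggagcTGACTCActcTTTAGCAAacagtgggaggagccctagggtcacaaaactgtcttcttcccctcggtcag

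The C1qc stretch holds a PU.1 match on the opposite strand, and the C1qb stretch holds none of the 6 motifs. The C1qc match begins 195 bases before a start that lies inside the gene as GENCODE draws it, and 151 of those 250 bases are C1qc exon. C3 holds a C/EBP match 45 bases before its start, Serpinb9 an interferon-regulatory factor match 45 bases before a start that lies inside the gene as GENCODE draws it, and Plaur an AP-1 match at 69 and a C/EBP match at 59 bases. The promoter table had entries for 21 members with 26 starts. Over these 26 starts, C/EBP letters were present at 5, AP-1 at 4, interferon-regulatory factor at 3, STAT at 2, PU.1 at 1 and the TATA box at 1. Over all 32841 starts of the table the shares with a match in the same 250 bases were 9.57%, 6.75%, 7.13%, 7.02%, 2.44% and 12.4% in the same order. In Serpinb6a the interferon-regulatory factor and STAT matches share bases, beginning 83 and 77 bases before 1 of its starts. The 250 bases before that start hold 80 bases of an exon of Ripk1. The window of the other Serpinb6a start lies wholly in exons and holds none of the motifs. These are matches of letters and describe no binding.

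The 3 chains of C1q, the recognition molecule of the classical pathway, rose to a similar degree. Their genes lie side by side on chromosome 4 between 136880129 and 136898803 in GRCm38. In the authors' deposited table C1qa went from an implied mean of 2867 in wild type to 9953 in the knockout, a log2 fold change of 1.80 ± 0.33 (adjusted p = 5.18e-07). C1qb went from 2346 to 9854, or 2.07 ± 0.26 (adjusted p = 7.97e-14), and C1qc from 2352 to 8508, or 1.85 ± 0.31 (adjusted p = 2.01e-08), in the authors' deposited table. The 95% intervals of the 3 fold changes overlap, from 2.23 to 5.41 for C1qa, 2.94 to 6.00 for C1qb and 2.39 to 5.48 for C1qc. On the scale of implied mean per kilobase of merged exons, C1qa and C1qb stood at 9570 and 9057 in the knockout, and C1qc at 4406. On the log2 scale these 3 values are below the median of the microglia and macrophage markers, 2.30, but each 95% interval includes it. The intervals end at 2.44 for C1qa, 2.58 for C1qb and 2.45 for C1qc.

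The members C1ra, C1s1 and C2, protease genes that act after C1q, had smaller fold changes than C1q itself. The substrate gene C4b had a value near that of C1q. C1ra, one of the protease genes of the C1 complex, had implied means of 474 and 819 and a log2 fold change of 0.79 ± 0.17, and its neighbour C1s1 had 352 and 572 and 0.70 ± 0.25, in the authors' deposited table. Their intervals end at 1.13 and 1.18 on the log2 scale, and that of C1qb begins at 1.56, though the difference between the genes was not tested. C4b, the complement component that C1s cleaves, went from 1253 to 4137, a log2 fold change of 1.72 ± 0.18 (adjusted p = 1.72e-19), in the authors' deposited table. C2, the protease partner of C4, went from 73.4 to 170 (1.21 ± 0.40) in the authors' deposited table. C4b and C2 lie within 170 kilobases of each other on chromosome 17. Outside the symbol rule, C1s2 was listed at a log2 fold change of 2.81 ± 1.10 from a deposited mean of only 6.32. C1ra, C1s1, C1s2 and C4b have near-identical copies in the mouse genome, so their counts may be shared between copies and are uncertain. The C1 inhibitor gene is described with the complement regulators.

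C3, on which all routes of activation converge, had the second largest log2 fold change of the members. In the authors' deposited table the implied mean rose from 1466 in wild type to 23170 in the knockout, a log2 fold change of 3.98 ± 0.24 (adjusted p = 1.58e-58) and a 15.8-fold difference with a 95% interval from 11.4 to 22.0. The lower end of the interval on the log2 scale, 3.51, lies above the upper end for each C1q chain, the highest of which is 2.58 for C1qb. The gene spans 57203970 to 57228136 on the minus strand of chromosome 17. Per kilobase of exon its implied mean went from 285, below each C1q chain, to 4505, close to C1qc at 4406. Cfp, which encodes properdin, the stabiliser of the alternative pathway convertase, went from 204 to 1072, a log2 fold change of 2.39 ± 0.30 (adjusted p = 9.54e-14), in the authors' deposited table. The other alternative pathway genes of the rule, Cfb and Cfd, were not listed.

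Of the later and lectin routes 1 member each was listed, in opposite directions. C6, a component of the membrane attack complex, had the largest rise of all members on the log2 scale, 4.93 ± 1.56 (adjusted p = 0.00747), in the authors' deposited table. Its implied means were 0.454 and 13.9, so the size rests on counts near 0, and the 95% interval of the fold ran from 3.68 to 253. Masp1, a protease of the lectin pathway, was the lower complement member, with implied means of 772 and 391, a log2 fold change of -0.98 ± 0.15 (adjusted p = 1.67e-09), in the authors' deposited table. C7 and Masp2 were not listed.

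Of 16 genes on the role list of complement regulators, 5 were higher, 1 was lower and 10 were not listed. Serping1, the inhibitor of C1r and C1s that belongs to the serpins, went from 389 to 1981, a log2 fold change of 2.35 ± 0.18 (adjusted p = 1.76e-35), in the authors' deposited table. Cfi, the protease that inactivates C3b and C4b, went from 3.07 to 36.1, a log2 fold change of 3.56 ± 0.71 (adjusted p = 5.81e-06), in the authors' deposited table. Of the listed regulators, 3 lie outside the symbol rule. Vtn, vitronectin, which blocks the membrane attack complex, went from 34.9 to 691 (4.31 ± 0.36), Cd46, a membrane cofactor, from 14.4 to 48.5 (1.75 ± 0.50), and Susd4, a membrane regulator, from 122 to 61.5 (-0.99 ± 0.36), in the authors' deposited table. The membrane inhibitors Cd55 and Cd59a were not listed.

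The 3 receptors for the cleavage products C3a and C5a were higher. C3ar1, the receptor for the C3a fragment, went from an implied mean of 1058 to 7334, a log2 fold change of 2.79 ± 0.15 (adjusted p = 4.25e-75), and C5ar1, the receptor for the C5a fragment, went from 485 to 2323, or 2.26 ± 0.11 (adjusted p = 5.49e-89), in the authors' deposited table. C5ar2, the second receptor for that fragment, lies beside C5ar1 on chromosome 7 and went from 23.3 to 80.3, or 1.78 ± 0.32 (adjusted p = 2.75e-07), in the authors' deposited table. Per kilobase of exon C5ar2 stood at 22.5 in the knockout against 904 for C5ar1. Integrin receptors for C3 fragments outside the symbol rule were listed too, with Itgam at 2.70 ± 0.12, Itgb2 at 1.83 ± 0.16 and Itgax at 1.50 ± 0.55 in the authors' deposited table. Cd93, once described as a C1q receptor, stood at 4.99 ± 0.16, and C1qbp, a mitochondrial protein that binds C1q, at -0.59 ± 0.18, in the authors' deposited table. The fragment receptors and integrin receptors named here are also carried by microglia and macrophages, whose 22 listed markers were all higher. With C1qa, C1qb, C1qc, Cfp and the 3 fragment receptors left out as genes that such cells are known to express, 9 complement members were higher and 1 lower. Over all listed genes 54.9% were higher. The complement members kept may include others that macrophages express, and the part of these cells in the rise was not tested.

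**Figure D3:**
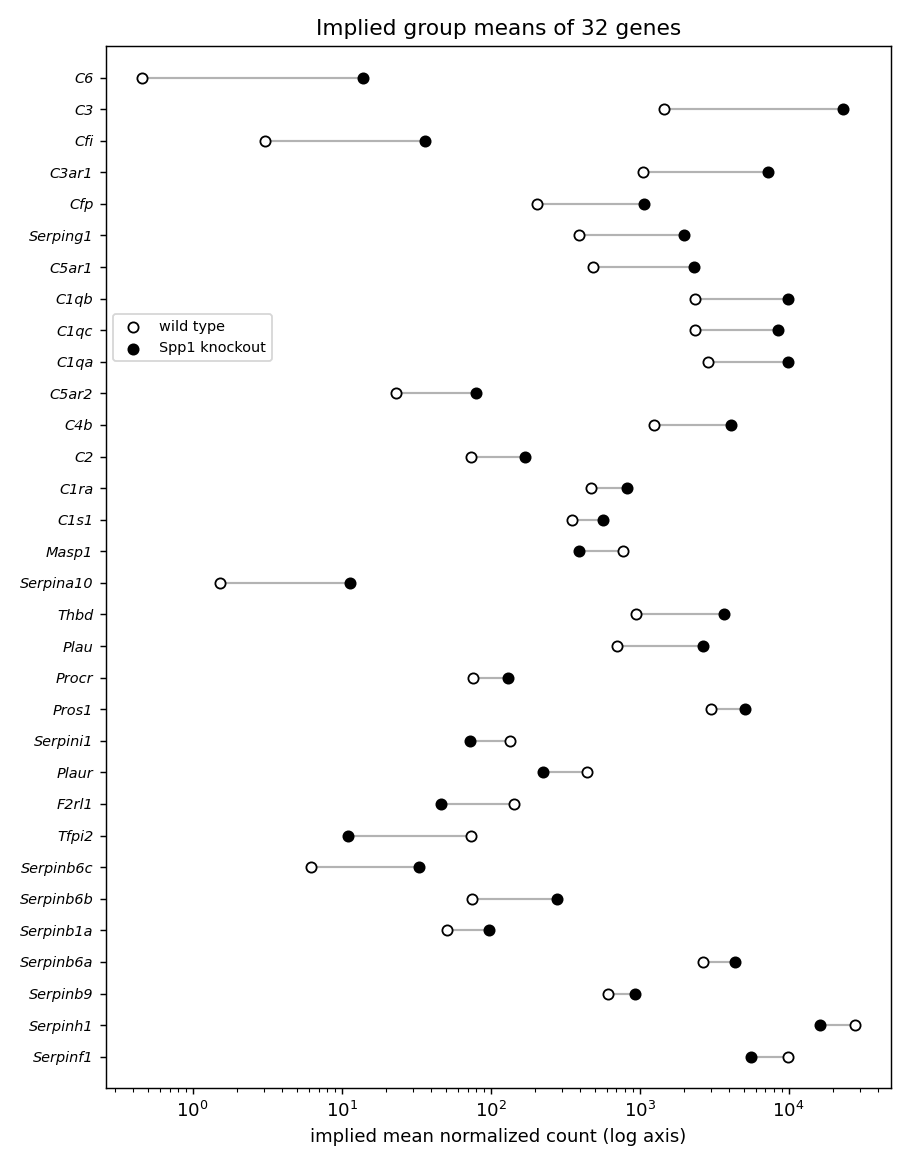
Implied mean normalized count (x axis, log scale) of 32 of the 34 genes in wild type (open circles) and knockout (filled circles), joined by a line, in the same order as the plot of fold changes. C3 moves from 1466 to 23170, and Serpinh1, the highest in wild type at 27856, moves to 16277; C6 and Serpina10 lie at the low end.

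Among anticoagulant genes, those acting through the thrombomodulin and protein C route were higher and Tfpi2 was lower. Thbd, thrombomodulin, which turns thrombin from a clotting to an anticlotting enzyme, went from 950 to 3700, a log2 fold change of 1.96 ± 0.13 (adjusted p = 5.72e-53), in the authors' deposited table. Procr, the protein C receptor, went from 76.1 to 130, or 0.77 ± 0.25 (adjusted p = 0.00845), and Pros1, protein S, from 3024 to 5071, or 0.75 ± 0.10 (adjusted p = 7.95e-13), in the authors' deposited table. Pros1 also bridges dying cells to TAM receptor kinases, of which Mertk was listed at 1.49 ± 0.13 in the authors' deposited table, while Gas6, the other bridging ligand, was not listed. Serpina10, an inhibitor of activated coagulation factor X, stood at 2.90 ± 1.14 (adjusted p = 0.0383) with implied means of only 1.53 and 11.4 in the authors' deposited table. Tfpi2, a Kunitz-type inhibitor of matrix and coagulation proteases, had the largest fall of all members, from 74.03 to 11.02, a log2 fold change of -2.75 ± 0.48 (adjusted p = 1.88e-07), in the authors' deposited table. That is 14.9% of the wild-type level.

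No coagulation factor of the symbol rule (F3, F5, F7, F10 and F13a1) was listed. Of 20 coagulation genes on the wider role list 4 were listed and higher, all at low counts. Kng1 and Kng2, the kininogen genes, had deposited means of 42.2 and 31.7 with log2 fold changes of 3.89 ± 0.50 and 3.44 ± 0.73, F9, coagulation factor IX, had 11.6 and 2.51 ± 0.85, and Fgb, a fibrinogen chain, had 4.64 and 4.28 ± 1.49, in the authors' deposited table. Kng1 and Kng2 are close copies, so reads may be shared between them. Of the protease-activated receptors, F2rl1, which trypsin-like proteases activate, went from 143 to 46.6, a log2 fold change of -1.61 ± 0.32 (adjusted p = 4.84e-06), in the authors' deposited table. The thrombin receptor gene F2r and its relatives F2rl2 and F2rl3 were not listed.

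In the plasminogen system the activator Plau rose while its receptor fell. Plau, urokinase, which cleaves plasminogen to plasmin, went from an implied mean of 708 to 2684, a log2 fold change of 1.92 ± 0.14 (adjusted p = 3.69e-42), in the authors' deposited table. Plaur, which holds urokinase at the cell surface, went from 442 to 226, or -0.96 ± 0.29 (adjusted p = 0.00528), in the authors' deposited table. Serpini1, neuroserpin, an inhibitor of tissue plasminogen activator, went from 136 to 73.1, or -0.89 ± 0.26 (adjusted p = 0.00312), in the authors' deposited table.

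Plat, tissue plasminogen activator, was not listed. Of the role list of 15 plasminogen genes 1 was higher and 5 were lower, among them Thbs1, thrombospondin (-1.37 ± 0.14), and Anxa2, a plasminogen-binding annexin (-0.73 ± 0.16), in the authors' deposited table. Meningeal fibroblast markers were mostly higher, and pericyte and smooth muscle markers lower, beside these genes, and their part was not tested.

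Of the 11 listed serpins 7 were higher and 4 lower, and only clade B had more than 1 listed member. All 5 listed members of clade B, the intracellular serpins, were higher, and the listed members of clades F, H and I, Serpinf1, Serpinh1 and Serpini1, were lower. Serpina10 and Serping1, of clades A and G, were higher. GENCODE M21 holds 61 protein-coding serpin genes, so 50 were not listed, among them 23 of 24 in clade A and 21 of 26 in clade B.

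The 5 listed clade B genes lie on chromosome 13 between 32842092 and 34002794, a span that holds 15 protein-coding serpins. In the authors' deposited table Serpinb6b had the smallest adjusted p of them, with implied means of 74.5 and 280 and a log2 fold change of 1.91 ± 0.21 (adjusted p = 2.28e-17). Serpinb6a, an inhibitor of cathepsin G and other serine proteases, went from 2686 to 4359 (0.70 ± 0.11), and Serpinb9, the inhibitor of granzyme B, from 611 to 930 (0.61 ± 0.12), in the authors' deposited table. Serpinb6c went from 6.20 to 32.9 (2.41 ± 0.52) and Serpinb1a, an inhibitor of neutrophil proteases, from 51.3 to 97.4 (0.93 ± 0.35), in the authors' deposited table. The Serpinb6 genes are close copies, so their counts are uncertain, and the interval of Serpinb6b (1.49 to 2.33 on the log2 scale) lies above that of Serpinb6a (0.49 to 0.90). By implied mean Serpinb6a was far the most abundant of the 5, at 806 per kilobase of exon in the knockout against 266 for Serpinb9 and 124 for Serpinb6b.

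The 2 most abundant serpins by implied mean fell. Serpinh1, the collagen chaperone HSP47, which does not inhibit proteases, went from an implied mean of 27856 to 16277, a log2 fold change of -0.78 ± 0.15 (adjusted p = 1.59e-06), in the authors' deposited table. Serpinf1, pigment epithelium-derived factor, a secreted anti-angiogenic and neurotrophic protein, went from 9904 to 5599, or -0.82 ± 0.11 (adjusted p = 3.28e-12), in the authors' deposited table. These correspond to 58.4% and 56.5% of the wild-type level. Per kilobase of exon Serpinh1 was the highest of the 34 members in wild type, at 11402, and in the knockout, at 6663, stood below C1qa and C1qb. Summed over the 11 listed serpins, the implied mean went from 45541 in wild type to 31178 in the knockout although 7 of the 11 were higher, because Serpinh1 and Serpinf1 make up most of the sum. Summed over the 17 complement members it went from 15078 to 77382, a ratio of 5.13.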

How the data were processed

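RNA-seq of 8 astrocyte culture samples, 4 per genotype, was compared. Per the submitters' processing notes, CASAVA 1.8, STAR 2.7, DESeq2 1.30.1 and GRCm38 were used, with no role stated; the annotation, the counting step and the filters: not given in the sources used here. What the authors deposited is 1 table with, per the file headers, a mean normalized count (a signal over all samples), a log2 fold change, its standard error, a Wald statistic (a score) and p-values, adjusted over all genes tested. It has 0 columns of per-sample values, so the depth per sample is unknown, no count test was run, and the authors' deposited fold changes and adjusted p were used in place of the count-model fit planned for values per sample. The number of tested genes was estimated from adjusted over raw p of the 20 smallest p above 0. The code for the estimate and the implied means was run on simulated data. The simulated means were built with the formula that was then inverted, and every gene with a large statistic was kept. That run checks the code and could not show an error that comes from the authors' fold limit. GENCODE M21 (GRCm38) gave positions and merged exon lengths for all 34 members. Python 3.11.15, pandas 2.3.3 and scipy 1.17.1 were used. Members, role lists and marker lists were chosen with earlier results of these data known. By the naming rule, every member is named except 2 that are not reported here, with implied means and adjusted p for up to 4 members per role list with the smallest adjusted p and for the largest rise and fall; other role-list genes are named where listed. Alternatives changed the limits on mean count, fold and adjusted p, or left out or added groups of genes.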

Additional observations from a re-analysis of the deposited data

How the results depend on the processing

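Of 62 alternative values for the 9 counts and medians, 42 stayed close to the reported value. For a count, close meant within 1.5 times. For the median it meant within 0.48, the median width of the members' 95% intervals to one side. A change of direction could be recorded for the median only, and there were 0. Most alternatives kept a part of the same members, so they are no separate evidence. Where the log2 fold change had to reach 1 in size, 3 members were lower, with 4 serpins higher and 1 lower, 0 complement genes lower, and 3 coagulation and plasminogen genes on each side. With mean normalized counts from 100 upward, 4 serpins were higher and 3 coagulation and plasminogen genes lower. With an adjusted p of at most 0.001 in the authors' deposited table, coagulation and plasminogen genes gave 3 higher and 3 lower. Without near-identical copies 2 serpins were higher. That setting chose copies by symbol and left out the Serpinb6 genes and Serpinb9 of clade B. Its symbol pattern also took out Serpina10, so the count is too low for copies alone. With the other genes of the cascades, 3 complement genes were lower and 9 coagulation and plasminogen genes higher. Without the members named above as expressed by macrophages, 9 complement genes were higher and the median log2 fold change was 0.86. In an alternative chosen after seeing the data, with intervals wholly beyond the fold limit, 5 members were lower, 4 serpins higher and 2 lower, and 3 coagulation and plasminogen genes on each side. The share of members that were higher ranged from 69.2%, in the setting without copies that also dropped Serpina10, to 86.4%. No paired analysis was possible because the table has 0 columns of per-sample values, although the sample titles number the replicates 1 to 4 in both groups; the replicate block and leaving out each replicate were not run. Depth per sample is unknown, and precision is limited for the 8 members with a mean under 100.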

Other observations

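Families related to these systems were picked after their values were seen and are described without a test. The inter-alpha-trypsin inhibitor heavy chains, plasma proteins that bind hyaluronan, and A2m, a broad protease trap, had 4 genes listed, all higher. In the authors' deposited table Itih2 went from an implied mean of 249 to 1569, a log2 fold change of 2.66 ± 0.13, Itih3 from 805 to 3603 (2.16 ± 0.20), Itih5 from 1492 to 4773 (1.68 ± 0.14) and A2m from 5095 to 12584 (1.30 ± 0.13). Of the kallikrein-related peptidases 2 were listed, both lower, with Klk8, neuropsin, from 346 to 37.4 (-3.21 ± 0.33) and Klk6, from 35.9 to 0.549 (-6.03 ± 1.12), in the authors' deposited table.

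The neuronal pentraxins, secreted synaptic proteins with a pentraxin domain, were lower, with Nptx1 from 471 to 49.8 (-3.24 ± 0.29), Nptx2 from 70.4 to 15.2 (-2.21 ± 0.45) and Nptxr from 899 to 539 (-0.74 ± 0.14) in the authors' deposited table, beside neuron markers that gave 0 higher and 9 lower of 13. Genes related to C1q by their globular domain showed no common direction, with C1qtnf2 and C1qtnf3 higher (1.78 ± 0.68 and 0.74 ± 0.27) and C1qtnf1 and C1qtnf6 lower (-0.93 ± 0.13 and -0.81 ± 0.18) in the authors' deposited table. Genes with sushi domains, a repeat common in complement regulators, gave 3 higher and 5 lower, with Csmd2 from 517 to 162 (-1.67 ± 0.33) in the authors' deposited table.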
